A study of Homo sapiens with 4 samples.

Results

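MAPK8IP1, which encodes the JNK scaffold JIP1, stood 8.57-fold lower in TOP3B knockout HCT116 cells than in wild-type cells, at 2.69 against 23 CPM. The log2 fold changes of the other 7 tested members lay between 0.05 and 0.55. edgeR called 0 of the 7, against 0.00815% of all genes, and DESeq2 called 0, against 1.38%, while 1 of the 7 had an unadjusted edgeR p under 0.05, against 11.2% of all genes, so these counts are near those over all genes. The genes described are the JUN N-terminal kinases (JNKs), the kinases above them and the JNK-interacting protein (JIP) scaffolds. They are the 10 genes MAPK8IP1, MAPK8IP2, MAPK8IP3, SPAG9, MAPK8, MAPK9, MAP2K4, MAP2K7, MAP3K11 and JUN, looked up by symbol among the 35820 genes of the deposited count table. 9 of the 10 gave values, and JUN was not analysed here. MAPK8IP1 was the reason for choosing this group, because it was lower in knockout cells. Its difference between the groups is therefore given as a description without a test, and the other genes were chosen by family.

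RNA was measured in HCT116, an established line from a human colon cancer. The wild-type (WT) group has 2 libraries. The other 2 libraries are of clone E2-4, in which a CRISPR guide had been directed at exon 2 of TOP3B, a topoisomerase acting on DNA and RNA (knockout, KO). The series asks how loss of TOP3B affects transcription and R-loops, which are RNA-DNA hybrids. Both groups were grown in the same serum-supplemented medium with antibiotics, and no further agent is named. The knockout is a single clone, so effects of TOP3B loss and of the clone cannot be told apart. Separate cultures are not stated for the libraries of a group, so p-values measure only the spread between these libraries.

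The libraries held 10450048 to 16143634 estimated counts in genes, so that 1 count was worth 0.0587 to 0.0904 CPM (counts scaled to library size with TMM factors). TOP3B itself stood at 57.1 and 66.5 CPM in WT and 43.9 and 54.7 CPM in KO. Since an edit within an exon need not remove the transcript, the mRNA level is no test of the genotype. WT replicate 1 stood apart by its TMM factor of 0.858, against 1.04 to 1.06 in the other libraries. The epithelial markers EPCAM, KRT8, KRT18, KRT19, CDH1, CLDN7, VIL1 and CDX2 summed to 2920 and 2430 CPM in WT and 1800 and 1700 CPM in KO, and their part in the results below was not tested. Most of that sum was KRT19, at 2240 and 1740 CPM in WT and 1210 and 1080 CPM in KO (DESeq2 adjusted p = 0.00298, edgeR adjusted p = 0.293). The other 7 summed to 672 and 686 CPM in WT and 590 and 617 CPM in KO, and KRT18 had 59 and 117 CPM in WT and 97.7 and 136 CPM in KO. VIL1 had at most 0.0819 CPM in any library, and CDX2 was at 0 in KO replicate 2. Of the 10 neuronal and islet markers, 9 gave values and 4 of these (STMN2, ELAVL4, INS and GCG) were at 0 in all 4 libraries. Their sum was 28.6 and 23.4 CPM in WT and 22.6 and 24 CPM in KO, of which TUBB3 made up 28, 22.4, 20.4 and 22.1 CPM. SYP, a synaptic vesicle protein gene, had 0.154 and 0.901 CPM in WT and 2.17 and 1.82 CPM in KO (edgeR adjusted p = 0.467). The leukocyte, fibroblast and endothelial markers each summed, list by list, to at most 2.62 CPM in any library.

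JNK signalling is a cascade of protein kinases. MAP3 kinases such as MLK3 (MAP3K11) phosphorylate the MAP2 kinases MKK4 (MAP2K4) and MKK7 (MAP2K7), and these activate JNK1 (MAPK8) and JNK2 (MAPK9), which phosphorylate JUN and other proteins in response to stress and cytokines. JIP scaffolds hold members of the cascade together. They also bind the motor protein kinesin-1 and so link the cascade to transport along microtubules. JIP1 and JIP2 are related to each other, and JIP3 (MAPK8IP3) and JIP4 (SPAG9) form a second pair. JIP1 and JIP2 are best known from neurons and pancreatic islet cells.

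JNKs recognise several of their partners through a short docking motif, in which basic residues are followed by leucine, any residue, and leucine or isoleucine. The coding bases of this motif are shown for MAPK8IP1, its relative MAPK8IP2 and both MAP2 kinases, since it is the part that these proteins share. Each line gives 30 bases (10 codons) ending at the last hydrophobic residue, 5′ to 3′ on the coding strand, with the codons of the first match of the motif in capitals. The motif matched 2 times in MAPK8IP1, 1 time in MAPK8IP2, 2 times in MAP2K4 and 4 times in MAP2K7. Matches that overlap but start at different residues were counted separately, and only the first is shown.
MAPK8IP1: CGGCCCAAGCGGCCCACCACGCTCAACCTC
MAPK8IP2: cacAAGCACCGGCCCACCACCCTCCGTCTG
MAP2K4: atgcagggtAAACGCAAAGCACTGAAGTTG
MAP2K7: gaggccCGGCGGAGGATCGACCTCAACCTG
The sequences and places are from GENCODE 29 on GRCh38, while the authors' build was hg19. The MAPK8IP1 stretch lies in exon 3 of 12 (plus strand, chr11:45900399-45900428), and the MAPK8IP2 stretch in exon 3 of 12 (plus strand, chr22:50603451-50603480). 18 of their 30 bases are identical. The MAP2K4 stretch is split between exon 1 and exon 2 (plus strand, chr17:12020995-12021001 and chr17:12054889-12054911), and that of MAP2K7 lies in exon 1 (plus strand, chr19:7904011-7904040).

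MAPK8IP1 was counted 292 and 288 times in WT, against 29 and 47 times in KO. These correspond to 22.5 and 23.6 CPM in WT and 2.62 and 2.76 CPM in KO. Both KO libraries lay far below both WT libraries, and the 2 libraries of each group were close to each other. Group means were 23 ± 0.767 CPM in WT and 2.69 ± 0.0984 CPM in KO (SD, n = 2 each). The level was 8.57-fold lower in KO (log2 fold change -3.09 by edgeR). Each pairing of a WT with a KO library gave a level between 8.15-fold and 9.01-fold lower in KO. The exact Poisson 95% intervals, which cover counting error only, ran from 20 to 26.5 CPM over the WT libraries and from 1.75 to 3.76 CPM over the KO libraries. Of the 12269 genes tested by edgeR, 71 (0.579%) had a lower log2 fold change. As the gene was chosen for this fall, its fold, rank and intervals are a description and no test. JIP1 mRNA remained detectable in both KO libraries. The limit given below at KIF5B, that a low estimate need not mean a low level, holds for these KO values too. In these bulk samples fewer cells with the transcript and less transcript per cell cannot be told apart.

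The deposited RPKM (counts scaled by gene length and by library total) gave the same picture for MAPK8IP1, with 1.83 and 2.33 in WT and 0.264 and 0.271 in KO. On the log2(RPKM + 0.1) scale, which understates changes of low genes, the difference was -2.56. When 1 library was left out, the log2 fold change stayed between -3.13 and -3.05 in edgeR. GENCODE 29 places an antisense gene, AC068385.1, over MAPK8IP1, which was not analysed here. Whether the authors' counting used strand is not given in the sources used here, so reads of this antisense partner cannot be told apart from those of MAPK8IP1.

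**Figure D1:**
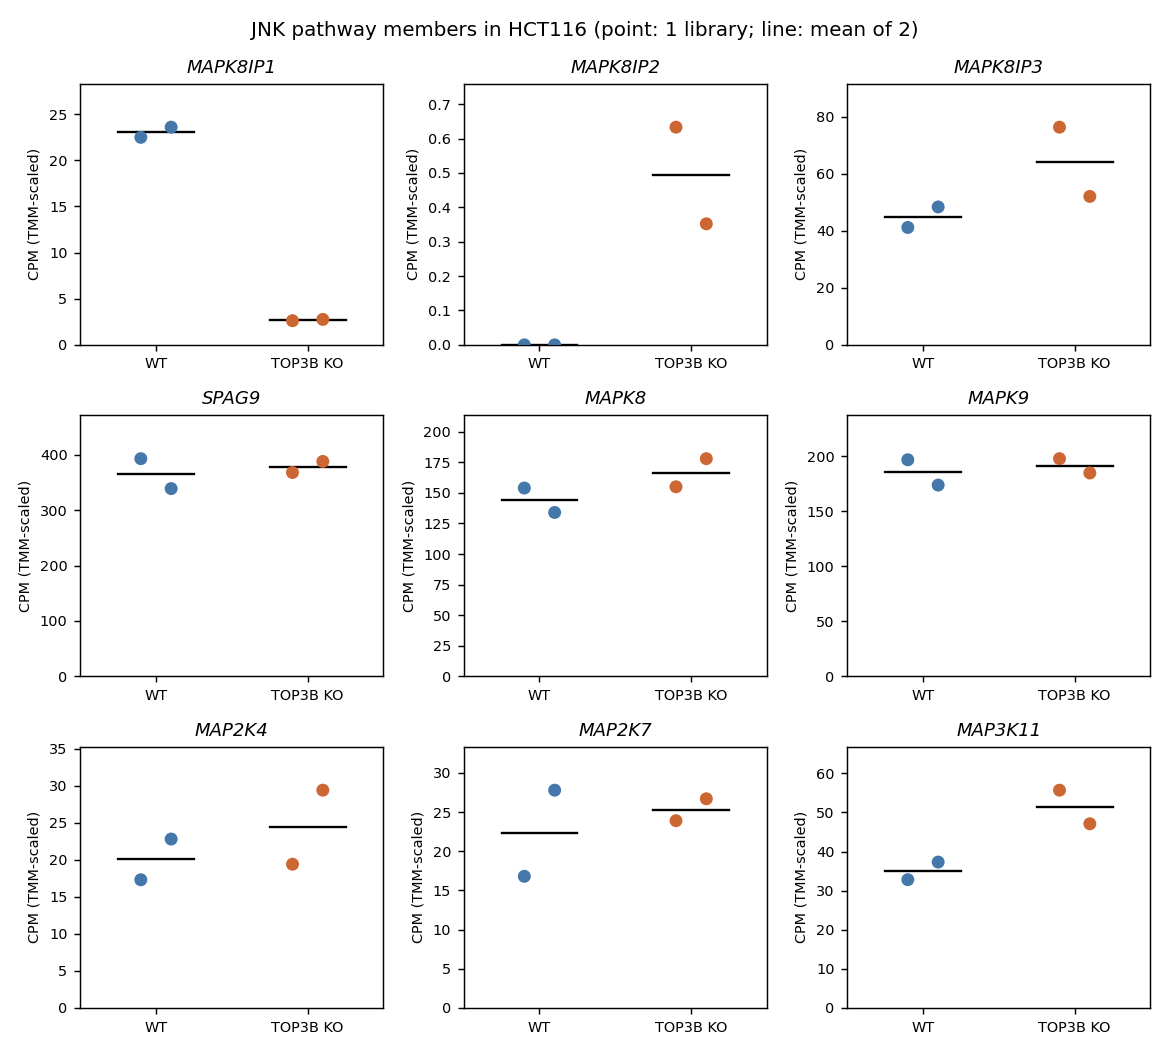
CPM (y axis, TMM-scaled, starting at 0) of the 9 members with values in WT and TOP3B KO libraries (x axis); each point is 1 library and each line the mean of 2. MAPK8IP1 drops from 22.5 and 23.6 CPM to 2.62 and 2.76 CPM, while SPAG9, MAPK9, MAP2K4 and MAP2K7 have overlapping groups.

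MAPK8IP2, the closest relative of MAPK8IP1, was barely detected, though a low estimate in these files need not mean a low level (see KIF5B below). It had 0 counts in both WT libraries, which allows up to 0.231 and 0.246 CPM at a floor of 3 counts, and 7 and 6 counts in KO (0.633 and 0.352 CPM). Pooled over the KO group, its level was 3.88-fold higher than a floor of 3 counts over the WT group. That value makes no allowance for counting error in KO. The exact Poisson 95% intervals were 0.254 to 1.3 and 0.129 to 0.767 CPM in KO replicates 1 and 2. In WT replicates 1 and 2 they reached up to 0.284 and 0.302 CPM, so the intervals of the groups overlapped. The gene had too few counts for the edgeR test, and it overlaps CHKB, a choline kinase gene on the other strand, which stood at 36.9 and 35 CPM in WT and 44.2 and 45.9 CPM in KO.

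MAPK8IP3 encodes JIP3, a scaffold that also links kinesin-1 and dynein to vesicles. It stood at 41.2 and 48.4 CPM in WT and at 76.4 and 52.1 CPM in KO. Both KO libraries were above both WT libraries, but the KO libraries lay further apart than the lower of them lay from WT replicate 2. The edgeR log2 fold change was 0.52 (SE 0.23, adjusted p = 0.476; DESeq2 adjusted p = 0.589), and it was 0.22 without KO replicate 1. SPAG9 encodes JIP4, a scaffold that acts in lysosome and endosome transport. Its values were 393 and 339 CPM in WT and 368 and 388 CPM in KO, and the groups overlapped. The edgeR log2 fold change was 0.05 (SE 0.13, adjusted p = 0.898).

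Ratios of scaffold counts within a library need no library scaling. Those with MAPK8IP1 follow from the choice of that gene and are a description. There were 0.546 and 0.487 counts of MAPK8IP1 for each count of MAPK8IP3 in WT, against 0.0343 and 0.053 in KO. Set against SPAG9, the ratio was 0.0573 and 0.0696 in WT and 0.00712 and 0.00711 in KO. The ratio of MAPK8IP3 to SPAG9, which does not hold MAPK8IP1, was 0.105 and 0.143 in WT and 0.207 and 0.134 in KO, and the groups overlapped. Since gene lengths differ, they compare libraries and not the amounts of the scaffolds. Per length, the deposited RPKM of SPAG9 ranged from 8 to 9.73 and that of MAPK8IP3 from 1.7 to 3.9. The gene lengths implied by RPKM were 42.1 kb for SPAG9, 20.8 kb for MAPK8IP3 and 10.5 kb for MAPK8IP1, so RPKM levels of different genes were not ranked.

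1 scaffold promoter is shown because it holds a full site of the kind that JUN and its ATF partners bind. The palindrome TGACGTCA was searched on both strands in the 250 bases before each RefSeq start (GRCh38.p14). It was found in MAPK8IP3, as 1 of 9 members matched to promoters, and in 1.65% of all 35116 promoters. The related palindrome TGANTCA was found in 0 of the 9 members' promoters and in 6.57% of all. MAPK8IP1 was the member without an entry. In the 100 bases below (plus strand, chr16:1706042-1706141) the site is in capitals and starts 107 bases before the gene's start.
MAPK8IP3 promoter: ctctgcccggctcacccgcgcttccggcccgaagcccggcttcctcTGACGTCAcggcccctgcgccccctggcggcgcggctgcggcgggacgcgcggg

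Of the 5 kinases among the members, MAP3K11 had the highest log2 fold change. It encodes MLK3, a MAP3 kinase that JIP1 binds. It stood at 32.8 and 37.3 CPM in WT and 55.7 and 47.1 CPM in KO, with group means of 35.1 ± 3.19 and 51.4 ± 6.02 CPM (SD, n = 2 each). The groups did not overlap. The log2 fold change was 0.55 (SE 0.16; unadjusted p = 0.0195, adjusted p = 0.381 by edgeR; DESeq2 adjusted p = 0.36), so it did not pass over all genes.

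The MAP2 kinases, which activate JNK, had overlapping groups. MAP2K4 stood at 17.3 and 22.8 CPM in WT and 19.4 and 29.4 CPM in KO (edgeR log2 fold change 0.29, SE 0.27, adjusted p = 0.684). MAP2K7 stood at 16.8 and 27.8 CPM in WT and 23.9 and 26.7 CPM in KO (0.18, SE 0.28; edgeR adjusted p = 0.802). The spread within a group was as wide as the difference between groups for both genes. The ratio of MAP2K4 to MAP2K7 counts within a library was 1.03 and 0.82 in WT and 0.814 and 1.1 in KO, with no separation of the groups.

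Neither JNK passed the test. MAPK8 (JNK1) stood at 154 and 134 CPM in WT and 155 and 178 CPM in KO. The lower KO library was barely above the higher WT library, and the edgeR log2 fold change was 0.21 (SE 0.14, adjusted p = 0.573). MAPK9 (JNK2) stood at 197 and 174 CPM in WT and 198 and 185 CPM in KO, with an edgeR log2 fold change of 0.05 (SE 0.12, adjusted p = 0.895). Within a library there were 0.778 and 0.77 counts of MAPK8 for each count of MAPK9 in WT, and 0.782 and 0.959 in KO, so that KO replicate 2 stood apart. MAPK10, the third JNK and mainly a neuronal gene, had 39 and 77 counts in WT and 41 and 129 in KO (edgeR log2 fold change 0.29, SE 0.54, adjusted p = 0.846).

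Beside MAPK8IP1, 7 members had enough counts for the test. By edgeR 0 of the 7 were called at an adjusted p under 0.05, against 0.00815% of all genes (1 gene), and 1 of 7 (MAP3K11) had an unadjusted p under 0.05, against 11.2% of all genes in either direction and 4.97% higher in KO. DESeq2 called 0 of them, against 1.38% of the genes to which it gave an adjusted p. In 3 of the 7 (MAPK8IP3, MAPK8 and MAP3K11) both KO libraries were above both WT libraries, against 23.5% of all genes, and in 0 they were both below, also against 23.5%. Their median log2 fold change was 0.21, against -0.01 over all tested genes. All 7 were above 0, against 5951 of the 12269 tested genes. However, SPAG9 and MAPK9 were below 0 without WT replicate 2, MAP2K7 without WT replicate 1 and MAP2K4 without KO replicate 2, at -0.13 to -0.03 in edgeR.

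**Figure D2:**
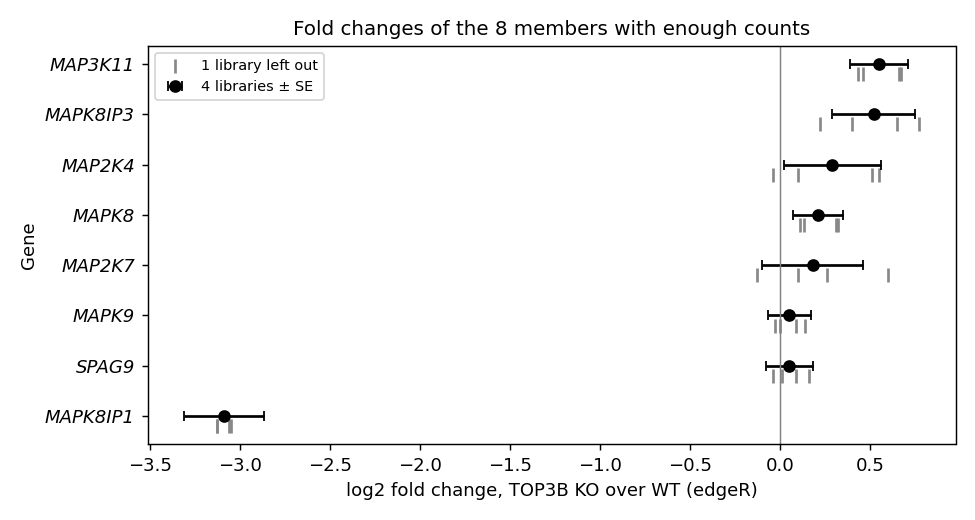
Log2 fold change of KO over WT by edgeR (x axis) for the 8 tested members (y axis); circles and bars are the estimate from 4 libraries and its SE, and grey ticks the estimates with 1 library left out. MAPK8IP1 sits at -3.09 with its ticks between -3.13 and -3.05, and the other 7 lie between 0.05 and 0.55. The bar of MAPK8IP1, which was chosen for its fall, is not read as a test.

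The rest of the pathway was read from 9 lists with 98 genes, of which 92 gave values and 81 had enough counts. By edgeR 0 of the 81 were called, against 0.00815% of all genes. At an unadjusted p under 0.05, 6 were higher and 8 lower, against 4.97% and 6.21% of all genes. DESeq2 called 1 higher (MAP2K3) and 1 lower (KIF5A), against 1.38% of all genes in either direction. In 23 genes both KO libraries were above both WT libraries and in 18 both were below, against 23.5% of all tested genes for each direction. The median over the 81 was 0, against -0.01 over all tested genes.

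The gene with the largest fold in these lists was a motor partner of the JIPs. KIF5A encodes a neuronal heavy chain of kinesin-1, the motor to which JIP1 attaches its cargo. It had 37 and 48 counts in WT (2.85 and 3.93 CPM) and was listed at 0 in both KO libraries. A floor of 3 counts over the KO group was 31.6-fold lower than WT, with no allowance for counting error in WT. The adjusted p of KIF5A was 0.246 by edgeR and 0.00112 by DESeq2. The DESeq2 call did not hold with any 1 library left out, although the DESeq2 log2 fold change stayed between -8.28 and -7.66 (-7.98 with all 4): leaving out WT replicate 1 or 2 gave an adjusted p of 0.0637 or 0.0527, and leaving out KO replicate 1 or 2 gave 0.0713 or 0.197. In edgeR, KIF5A passed without WT replicate 2 (adjusted p = 0.0447) and with no filter on low counts (adjusted p = 0.0451). KIF5B, the heavy chain used by most cells, was listed at 0, 0.164, 0.452 and 0.117 CPM (WT replicates 1 and 2, then KO replicates 1 and 2), so a low estimate in these files need not mean a low level.

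The other genes of this list were closer to no change. The light chains, through which JIPs bind kinesin-1, stood at 250 and 257 CPM in WT and 278 and 272 CPM in KO for KLC1. KLC2 had 36.4 and 30.9 CPM in WT and 36.9 and 34.3 CPM in KO. KLC4 had 2.39 and 3.6 CPM in WT and 4.52 and 5.05 CPM in KO. KLC3 ran from 1.54 to 8.84 CPM, with overlapping groups. KIF5C, another kinesin-1 heavy chain, had 13 and 6 counts in WT and 2 and 6 in KO, too few for the edgeR test. LRP8, a reelin receptor whose tail binds JIP1, stood at 6.78 and 6.55 CPM in WT and 16.1 and 14.8 CPM in KO (edgeR log2 fold change 1.21, SE 0.22, adjusted p = 0.26; DESeq2 adjusted p = 0.0667). APP, the amyloid precursor and another JIP1 cargo, had overlapping groups with 1070 and 897 CPM in WT and 905 and 902 CPM in KO. Of 11 tested genes in the list, 4 had both KO libraries above WT and 1 (KIF5A) below, against 23.5% of all genes for each direction, with a median of -0.01.

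**Figure D3:**
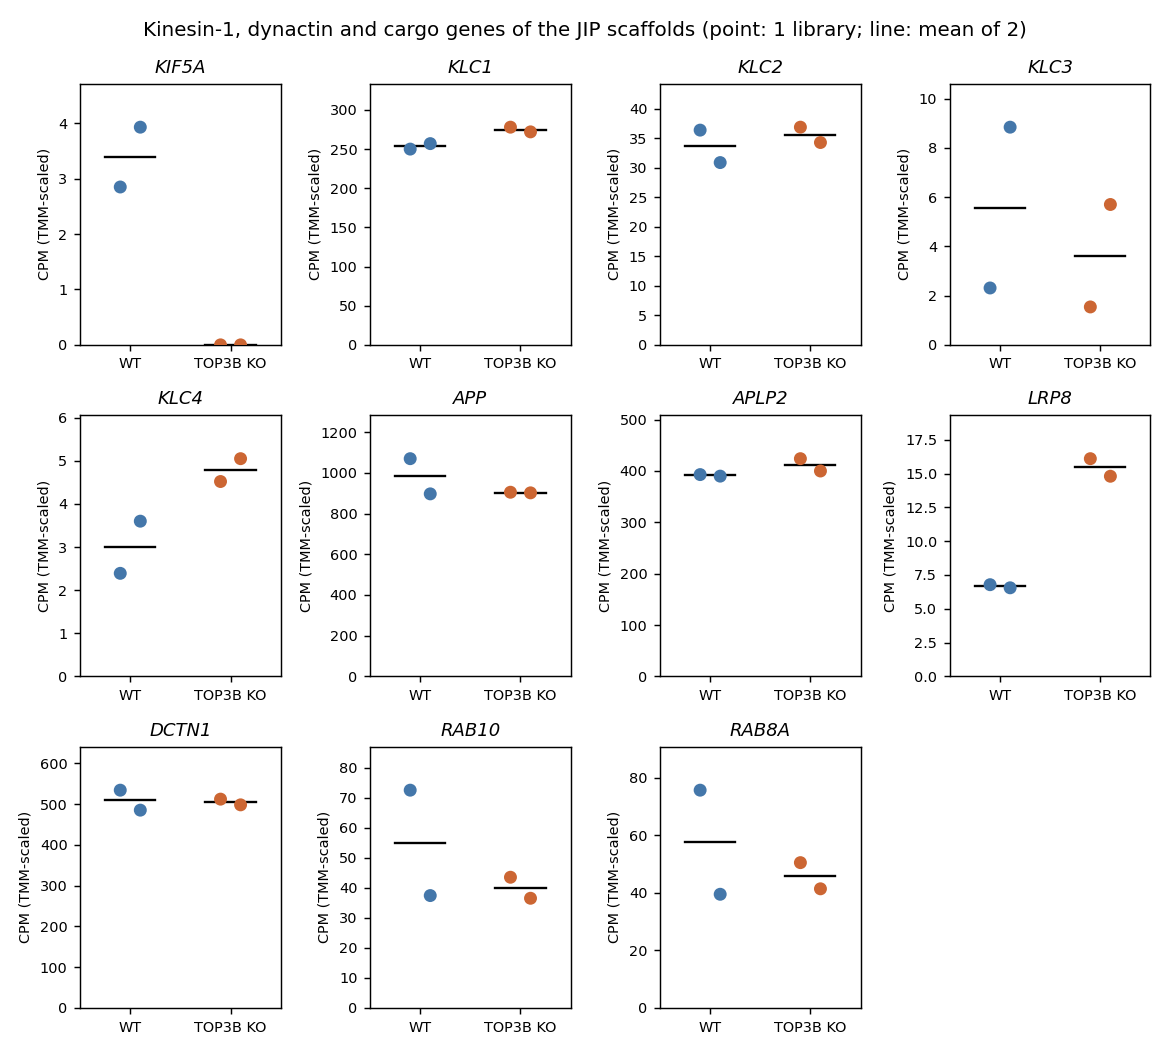
CPM (y axis, TMM-scaled, starting at 0) in WT and TOP3B KO libraries (x axis) of the 11 tested kinesin-1, dynactin and cargo genes of the JIPs; each point is 1 library and each line the mean of 2. KIF5A goes from 2.85 and 3.93 CPM to 0, LRP8 is above 14 CPM in both KO libraries, and KLC2, APP and DCTN1 have overlapping groups.

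Upstream of the cascade neither tool called a gene with all 4 libraries, against 0.00815% of all genes by edgeR and 1.38% by DESeq2. Of 15 tested MAP3 kinases that can feed JNK, 3 had both KO libraries above WT and 3 below, against 23.5% of all genes for each direction, with a median of 0. MAP3K6 had 5.93 and 10.5 CPM in WT and 2.35 and 3.76 CPM in KO (edgeR log2 fold change -1.41, SE 0.44, adjusted p = 0.389). MAP3K9, which encodes the MLK3 relative MLK1, had 5.55 and 10.2 CPM in WT and 13.7 and 11.1 CPM in KO (0.66, SE 0.36; edgeR adjusted p = 0.526). Among 13 tested MAP4 kinases and adaptors the median was -0.08. In 2 of the 13 both KO libraries were above WT and in 5 below, against 23.5% of all genes for each direction. TNIK, a kinase of this group that also acts in WNT signalling, had 49 and 51.8 CPM in WT and 77.2 and 73.5 CPM in KO (0.58, SE 0.12; edgeR adjusted p = 0.274). TAB3, an adaptor of the MAP3 kinase TAK1, had 35.9 and 29.2 CPM in WT and 7.86 and 18 CPM in KO (-1.32, SE 0.41; edgeR adjusted p = 0.389). Leaving out KO replicate 1 gave TAB3 an edgeR log2 fold change of -0.85, and leaving out KO replicate 2 gave -2.05, where DESeq2 called it (adjusted p = 0.0231).

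Of the other JNK scaffolds, SH3RF2 had the smallest unadjusted p. SH3RF2, a relative of the scaffold POSH (SH3RF1), had 18.4 and 20.6 CPM in WT and 9.67 and 7.63 CPM in KO (edgeR log2 fold change -1.18, SE 0.22, adjusted p = 0.26; DESeq2 adjusted p = 0.0585). SH3RF1 itself overlapped, with 25.9 and 22.5 CPM in WT and 29.3 and 11.9 CPM in KO. FLNA, the actin cross-linker filamin A, had 117 and 102 CPM in WT and 142 and 133 CPM in KO (0.33, SE 0.13; edgeR adjusted p = 0.451). The 7 tested scaffolds had a median of -0.01. In 2 of them both KO libraries were above WT and in 1 below, against 23.5% of all genes for each direction. Neither tool called any of the 7, against 0.00815% of all genes by edgeR and 1.38% by DESeq2.

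The phosphatases listed for the JNK pathway had values on both sides of 0. Neither tool called any, against 0.00815% of all genes by edgeR and 1.38% by DESeq2. DUSP16, which acts on JNK and p38, had 4.78 and 3.03 CPM in WT and 9.67 and 8.16 CPM in KO (edgeR log2 fold change 1.19, SE 0.34, adjusted p = 0.378). DUSP19 was low throughout, with 13 and 15 counts in WT and 3 and 6 in KO (-1.79, SE 0.55; edgeR adjusted p = 0.388). Of 6 tested, 3 had both KO libraries above WT and 1 below, against 23.5% of all genes for each direction, with a median of 0.44. DUSP1 was not analysed here.

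Downstream, the partners of JUN in AP-1 had values on both sides of 0. Neither tool called any, against 0.00815% of all genes by edgeR and 1.38% by DESeq2. FOSL1 had 9.09 and 14 CPM in WT and 20.4 and 21.8 CPM in KO (edgeR log2 fold change 0.87, SE 0.26, adjusted p = 0.388). FOSL2 had 66.1 and 49.5 CPM in WT and 31.2 and 37.9 CPM in KO (-0.74, SE 0.21; edgeR adjusted p = 0.361). ATF2, a JNK substrate that pairs with JUN on the TGACGTCA site, had 73 and 49.7 CPM in WT and 86.5 and 75 CPM in KO (0.39, SE 0.22; edgeR adjusted p = 0.529). In 5 of 10 tested genes both KO libraries were above WT and in 3 below, against 23.5% of all genes for each direction, with a median of 0.27. JUNB was not analysed here.

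Among 11 tested further JNK substrates the median was -0.03. In 2 of them both KO libraries were above WT and in 4 below, against 23.5% of all genes for each direction. With all 4 libraries neither tool called any, against 0.00815% of all genes by edgeR and 1.38% by DESeq2. BCL2L11, which encodes the cell death protein BIM, had 10 and 18 counts in WT and 48 and 28 in KO (edgeR log2 fold change 1.39, SE 0.67, adjusted p = 0.498). The value for BCL2L11 was 0.55 without KO replicate 1 and 1.94 without WT replicate 2 or KO replicate 2. STMN1, the microtubule-destabilising protein stathmin, had 470 and 253 CPM in WT and 205 and 213 CPM in KO (-0.79, SE 0.30; edgeR adjusted p = 0.445). WT replicate 1 was far above the other libraries in STMN1, and the log2 fold change was -0.27 without it. Without WT replicate 2 it was -1.16 and STMN1 passed the test (edgeR adjusted p = 0.00559, DESeq2 adjusted p = 1.13e-13).

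The p38 kinases share upstream kinases with JNK. MAP2K3 (MKK3), which activates p38 and not JNK, had 51 and 52.6 CPM in WT and rose to 79.8 and 87.3 CPM in KO by DESeq2 (log2 fold change 0.69, SE 0.12, by edgeR; DESeq2 adjusted p = 0.0316; edgeR adjusted p = 0.26). This call was lost with any 1 library left out, although the DESeq2 log2 fold change stayed between 0.63 and 0.77, with an adjusted p of 0.389 without WT replicate 1, 0.0641 without WT replicate 2 and 1 without either KO library. MAPK14, the main p38, had 44.2 and 37.3 CPM in WT and 39 and 39.2 CPM in KO. MAPK11 was low, with 16 and 16 counts in WT and 33 and 30 in KO (0.88, SE 0.47; edgeR adjusted p = 0.523). The 7 tested genes of this arm had a median of 0.12. In 2 of the 7 both KO libraries were above WT and in 0 below, against 23.5% of all genes for each direction.

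**Figure D4:**
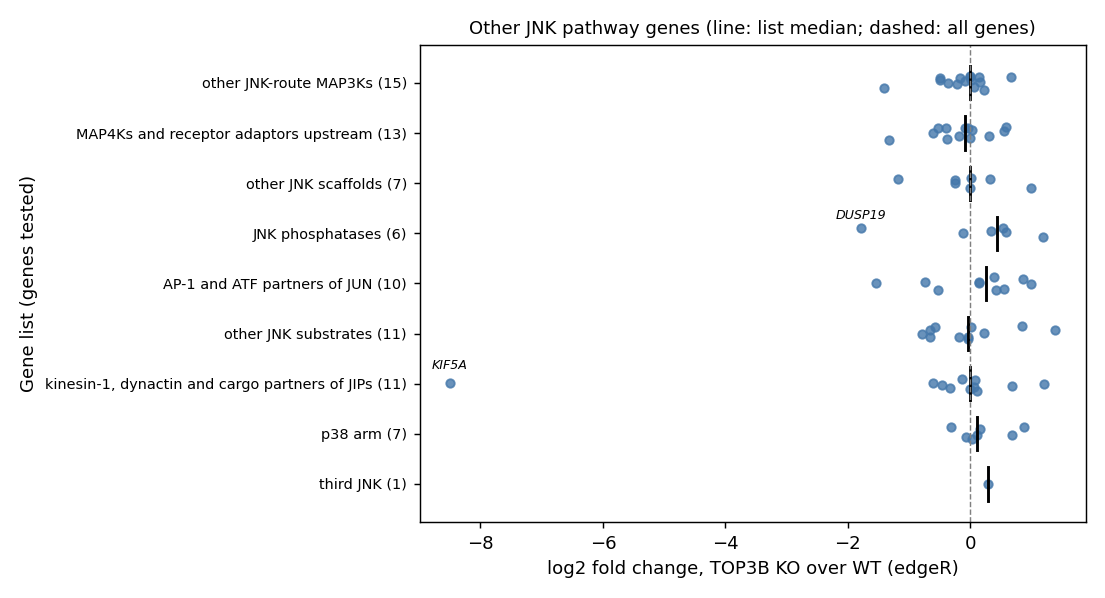
Log2 fold change of KO over WT by edgeR (x axis) for the tested genes of each pathway list (y axis, number of genes in brackets); each point is 1 gene, the black lines are list medians and the dashed line is the median of all tested genes. List medians lie between -0.08 and 0.44, and KIF5A stands alone at -8.50, a fitted value that depends on the prior count because KO is listed at 0.

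The genes beside MAPK8IP1 on chromosome 11 had log2 fold changes between -0.18 and 0.86. In RefSeq gene order the 3 genes on each side are LINC02716, SLC35C1 and CRY2 before it, and LOC124902668, FREY1 and PEX16 after it; 4 of the 6 gave values. SLC35C1, a GDP-fucose transporter, had 54 and 81 counts in WT and 96 and 182 in KO (edgeR log2 fold change 0.85, SE 0.34, adjusted p = 0.456). CRY2, a circadian repressor, had 30 and 36 counts in WT and 22 and 127 in KO (0.86, SE 0.67; edgeR adjusted p = 0.63). PEX16, needed to form peroxisomes, had 166 and 140 counts in WT and 110 and 196 in KO (-0.18, SE 0.22; edgeR adjusted p = 0.762). FREY1 had 7 to 9 counts in every library. Without KO replicate 2 the log2 fold change of CRY2 was -0.40.

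**Figure D5:**
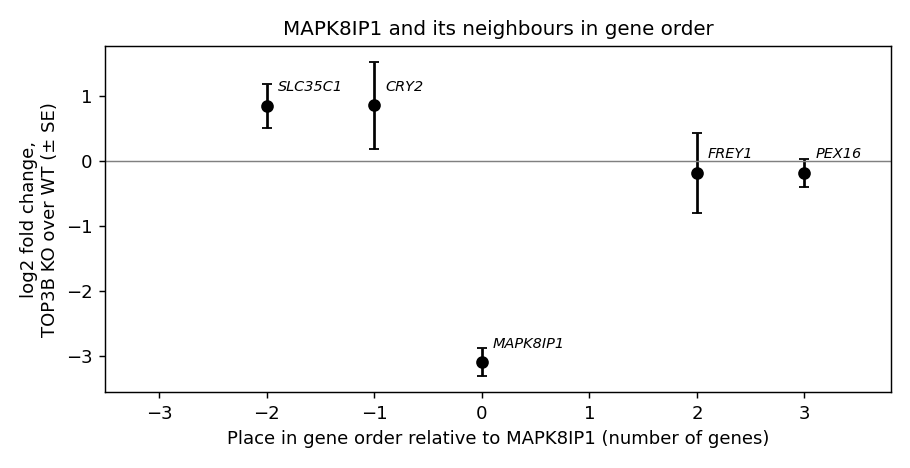
Log2 fold change of KO over WT by edgeR with SE (y axis) for MAPK8IP1 and its neighbours by place in gene order (x axis); places -3 and 1 have no values. MAPK8IP1 sits at -3.09 and the 4 neighbours between -0.18 and 0.86. The bar of MAPK8IP1, which was chosen for its fall, is not read as a test.

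Genes with the pattern most like that of MAPK8IP1 were found by the distance between log2 CPM profiles over the 4 libraries. Before the log, about 2 counts (the prior count) were added in each library. Each profile was then centred on its mean. The 11565 other genes compared had a mean of at least 1 CPM. The comparison is a description over 4 libraries, and it selects genes with a similar fall. The nearest was IL6R, an interleukin-6 receptor chain (distance 0.152), with 31 and 28 counts in WT and 2 and 3 in KO. At such low counts the added counts lessen the fall, so the rank of IL6R depends on them. Its edgeR log2 fold change was -3.65, against -3.09 for MAPK8IP1 and -3.02 for ZNF551. The next were the zinc finger gene ZNF551 (distance 0.296), the integrin-like ITGBL1 (0.314) and the proteoglycan gene CSPG5 (0.389). YWHAQ, a 14-3-3 protein (0.401), was the most abundant of the 5, with 47.1 and 38.4 CPM in WT and 6.42 and 5.28 CPM in KO.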

How the data were processed

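Estimated counts per gene and RPKM were used as deposited by the authors for 4 libraries. The submitters' processing notes name Salmon 1.10.1 and hg19 (annotation, gene lengths and use of strand: not given in the sources used here). Per the labels' protocols, ribosomal RNA was depleted and libraries were stranded and paired-end. The deposited expected counts were whole numbers and were used unchanged. The deposited RPKM carry no TMM scaling.

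The test was edgeR 4.0.16 (quasi-likelihood F-test, TMM, filterByExpr, genotype alone; limma 3.58.1, R 4.3.3) with Benjamini-Hochberg adjustment over 12269 genes and a threshold of 0.05. The SE is the fold change divided by the square root of F. DESeq2 1.42.0 was the main alternative. Both fits were run on simulated data with the same dispersion for every gene, which does not show how many changes they miss here. With 2 libraries per group, an absence of calls is no evidence of no change. Coding sequences were translated with Biopython 1.88.

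Named genes were all members, the 5 nearest patterns, and 3 neighbours on each side. In each list they were those called by either tool and the 2 of smallest edgeR p. Other genes named were chosen after their values were seen: EPCAM, KRT8, KRT18, KRT19, CDH1, CLDN7, VIL1, CDX2, TUBB3, SYP, KIF5B, KIF5C, KLC1, KLC2, KLC3, KLC4, APP, SH3RF1, ATF2 and MAPK14. Members and lists were chosen with earlier results of these data known.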

Additional observations from a re-analysis of the deposited data

How the results depend on the processing

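Across genes edgeR called 1, against 183 by DESeq2 and 34 with no filter on low counts. Leaving out 1 library gave 0 to 575 in edgeR (575 without WT replicate 2, 3 without WT replicate 1, 0 without either KO library). DESeq2 with 1 library left out, chosen after seeing the data, gave 86 and 721 without WT replicates 1 and 2, and 75 and 72 without KO replicates 1 and 2. Members other than MAPK8IP1 had 0 calls under every alternative run, with 0 to 3 at an unadjusted p under 0.05. For the pathway lists edgeR called 0, DESeq2 called 2 and the fit with no filter 1 (KIF5A); leaving out 1 library gave 0 to 2 in edgeR (2 without WT replicate 2), and in DESeq2 2 without WT replicate 2 and 1 without KO replicate 2. RLE factors and leaving out RN7SK, SNORD3A and RMRP changed none of these counts. With a replicate block the counts were 1, 0 and 0. Whether libraries that share a replicate number were prepared together is not stated. The correlation of replicate differences between groups was 0.0584 across genes.

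Leaving out 1 library turned the direction of some genes, given as their lowest and highest edgeR log2 fold changes: SPAG9 (-0.04 to 0.16) and MAPK9 (-0.03 to 0.14) without WT replicate 2, MAP2K7 (-0.13 to 0.60) without WT replicate 1, MAP2K4 (-0.04 to 0.55), CRY2 (-0.40 to 1.5) and FREY1 (-0.70 to 0.26) without KO replicate 2, and MAPK10 (-0.33 to 0.93) without WT replicate 1 (-0.15) or KO replicate 2. DESeq2 gave -0.05 for SPAG9, -0.03 for MAPK9, -0.13 for MAP2K7, -0.04 for MAP2K4, -0.40 for CRY2, 0.27 for FREY1, and -0.15 and -0.32 for MAPK10 in the same fits. On the log2(RPKM + 0.1) scale FREY1 was at 0.02. The cause was not tested. The log2 fold change of MAPK8IP1 ranged from -3.13 to -2.56 over its alternatives. A lone library in a group is assumed to vary like those of the other group. At this depth a level under 0.176 to 0.271 CPM in 1 library could not be told from 0.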

Other observations

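The genes given here were chosen after their values were seen. 2 vesicle GTPases of the JIP partner list had WT replicate 1 above the other libraries, as STMN1 did. RAB10 stood at 72.5 CPM in WT replicate 1, 37.4 in WT replicate 2 and 43.5 and 36.5 in KO. RAB8A stood at 75.7, 39.5, 50.5 and 41.4 CPM in the same order. NME3, which overlaps MAPK8IP3 on the other strand, had 12.8 and 10.9 CPM in WT and 14.4 and 9.92 CPM in KO. KO replicate 1 was the highest for both genes. In KO replicate 2 NME3 was at its lowest, while MAPK8IP3 was above both WT libraries. WDR62, a JNK scaffold of the spindle pole, had 1.08 and 1.23 CPM in WT and 2.08 and 2.52 CPM in KO. Its edgeR log2 fold change was 1.00 (SE 0.42, adjusted p = 0.471), and neither tool called it (DESeq2 adjusted p = 0.904).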
